A study of Mus musculus with 3 samples.

Results

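Haemoglobin transcripts were followed across 3 sections of mouse brain: the adult beta chain genes Hbb-bs and Hbb-bt, the adult alpha chain genes Hba-a1 and Hba-a2, and Alas2, the first enzyme of haem synthesis in red cell precursors. These 5 genes, out of 31053 in the deposited matrices, were taken by symbol, and all 5 were found. The sections were profiled with 10x Visium, an array of barcoded spots that captures RNA from the tissue lying on it and tells molecules apart by unique molecular identifiers (UMIs). A spot covers a small patch of tissue and can hold parts of several cells.

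Each group was 1 fresh frozen, methanol-fixed and H&E-stained section of 10 µm from a C57BL/6J mouse brain. The O-Ex section carries the treatment label exercise, and the O-Ctrl and Y-Ctrl sections are both labelled as controls. Since the study is about exercise in brain aging, O was taken to mean old and Y young. Ages, the kind and length of exercise, the number of animals, the plane of section and whether blood was washed out before freezing are not given in the sources that were used. Nuclear RNA is the labelled molecule, but the protocol puts whole sections on the array. With 1 section per group, a difference between sections has no replicate check, and group, animal, section and library cannot be told apart. Intervals below are exact 95% intervals and cover counting error only.

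Haemoglobin carries oxygen in red cells as a tetramer of alpha and beta chains, each holding a haem group. Red cell precursors make its messages in bone marrow, and mammalian red cells lose their nucleus but keep some of these messages for a time after entering the blood, so that globin RNA in brain tissue is commonly read as a trace of blood in vessels. Globin messages at low level have also been described in neurons and glia, and a spot cannot separate these sources.

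Barcodes with at least 3000 UMIs were kept as spots, which gave 3332 spots in O-Ex, 3498 in O-Ctrl and 3409 in Y-Ctrl. They held 51862713, 57003788 and 61186997 UMIs in that order, between 97.5% and 98.1% of each library. The median spot had 13685 UMIs in O-Ex, 14900 in O-Ctrl and 15718 in Y-Ctrl. All barcodes are shared by the 3 libraries, since they name positions on the array. Levels are given as CPM, the UMIs of a gene per 1000000 UMIs of all genes in these spots.

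The beta genes lie on mouse chromosome 7 and the alpha genes on chromosome 11, each pair being neighbouring copies, and Alas2 lies on chromosome X. In mm10 coordinates Hbb-bs (ENSMUSG00000052305) spans chr7:103826534-103828096 and Hbb-bt (ENSMUSG00000073940) spans chr7:103812524-103813996, both on the minus strand. Hba-a1 (ENSMUSG00000069919) spans chr11:32283511-32284465 and Hba-a2 (ENSMUSG00000069917) spans chr11:32296489-32297298, both on the plus strand. Alas2 (ENSMUSG00000025270) spans chrX:150547375-150570638 on the plus strand, with 11 exons against 3 in each globin gene. The alpha transcripts share much of their sequence: of all 50-base windows of Hba-a1, 67.5% occur unchanged in Hba-a2, and 86.9% of those of Hba-a2 occur in Hba-a1. The beta transcripts share less, with 65.8% of Hbb-bs windows found in Hbb-bt but 36.7% in the last 300 bases, near the end that this assay reads. In the last 300 bases of Hba-a1 that share was 80.1%. How shared reads were assigned is not stated in the sources used here, so the split between Hba-a1 and Hba-a2 is uncertain, and the alpha sum is used beside it.

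The sequences just before the transcription starts are shown because the 4 globins were all higher in O-Ex than in O-Ctrl, as described after them. They are the 250 bases before each RefSeq start (GRCm38.p6, the assembly that mm10 names), written 5′ to 3′ on the strand of the gene. The GENCODE spans given above reach into these windows, because the starts annotated by GENCODE and RefSeq differ. The windows are chr7:103827929-103828178 for Hbb-bs, chr7:103813924-103814173 for Hbb-bt, chr11:32283422-32283671 for Hba-a1 and chrX:150547167-150547416 for Alas2. Capitals mark matches, on either strand, to the core bound by GATA factors, GATAA, and to the core bound by the erythroid factor KLF1 and its relatives, CACCC. They also mark the box that several general factors bind, CCAAT, and a form of the TATA box, ATATAA.
Hbb-bs: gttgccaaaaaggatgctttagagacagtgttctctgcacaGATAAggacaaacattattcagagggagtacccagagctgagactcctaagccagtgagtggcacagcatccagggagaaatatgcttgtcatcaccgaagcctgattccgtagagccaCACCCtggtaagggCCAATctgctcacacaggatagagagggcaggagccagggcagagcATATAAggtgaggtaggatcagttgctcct
Hbb-bt: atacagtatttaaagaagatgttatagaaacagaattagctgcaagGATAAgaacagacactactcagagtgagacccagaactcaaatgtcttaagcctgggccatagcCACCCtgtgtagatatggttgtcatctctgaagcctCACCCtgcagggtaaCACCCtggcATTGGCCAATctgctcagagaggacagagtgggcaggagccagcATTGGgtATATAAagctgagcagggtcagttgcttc
Hba-a1: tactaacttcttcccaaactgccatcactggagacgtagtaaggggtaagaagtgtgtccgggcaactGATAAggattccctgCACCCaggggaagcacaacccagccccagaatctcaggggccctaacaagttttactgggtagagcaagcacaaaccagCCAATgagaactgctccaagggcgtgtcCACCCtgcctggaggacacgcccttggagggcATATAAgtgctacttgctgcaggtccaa
Alas2: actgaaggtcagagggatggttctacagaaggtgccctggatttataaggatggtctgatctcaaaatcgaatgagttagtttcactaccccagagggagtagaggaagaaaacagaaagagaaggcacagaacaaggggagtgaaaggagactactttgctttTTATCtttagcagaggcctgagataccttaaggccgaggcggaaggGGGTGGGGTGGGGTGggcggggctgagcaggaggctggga
The Hba-a2 window (chr11:32296242-32296491) is not printed because it is 97.6% identical to that of Hba-a1, whereas the Hbb-bs and Hbb-bt windows are 71.4% identical. ATATAA began 30 bases before the start in Hbb-bs, 29 in Hbb-bt, 28 in Hba-a1 and 31 in Hba-a2, and it was not found in the Alas2 window. CCAAT began 76 bases before the start in Hbb-bs, 75 in Hbb-bt, 88 in Hba-a1 and 91 in Hba-a2. In Hbb-bt this copy abuts a copy on the other strand, which makes the run ATTGGCCAAT. The Alas2 window held 1 GATAA and 3 CACCC, all on the other strand, printed as TTATC and GGGTG. Over 32851 promoter windows of the same length, GATAA was found in 22.6%, CACCC in 52.0%, CCAAT in 33.8% and ATATAA in 9.10%. These matches describe the letters of the windows and are not evidence of binding. Any part of these sequences in the difference between sections was not tested.

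All 4 globin transcripts stood higher in O-Ex than in O-Ctrl, by 1.81-fold to 1.90-fold, while O-Ctrl and Y-Ctrl differed by less than 1.1-fold for each. Together they made up 2036 CPM in O-Ex, 1098 in O-Ctrl and 1132 in Y-Ctrl, or 0.204%, 0.110% and 0.113% of all UMIs. Alas2 was near the limit of detection, at 191 UMIs in O-Ex, 104 in O-Ctrl and 117 in Y-Ctrl. In spots, fewer red cells and less globin RNA per cell cannot be told apart.

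Hbb-bs, the major adult beta chain of the haplotype carried by C57BL/6 mice, was the most abundant member. Its level was 1008.3 CPM (999.7 to 1017) in O-Ex, 550.0 (543.9 to 556.1) in O-Ctrl and 591.3 (585.2 to 597.4) in Y-Ctrl. It ranked 101 among all genes by CPM in O-Ex, 234 in O-Ctrl and 216 in Y-Ctrl. At least 1 Hbb-bs UMI was found in 90.4% of O-Ex spots, 78.3% of O-Ctrl spots and 81.2% of Y-Ctrl spots. The O-Ex section was highest on each of these measures, and the intervals of the 3 sections do not overlap.

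Hbb-bt, the second adult beta chain, had 141 CPM in O-Ex, 74.9 in O-Ctrl and 81.3 in Y-Ctrl, and was found in 43.9%, 29.0% and 32.8% of their spots. O-Ex again stood highest, and the beta sum was 1150 CPM there, against 625 in O-Ctrl and 673 in Y-Ctrl. Both beta genes were slightly lower in O-Ctrl than in Y-Ctrl.

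Hba-a1 and Hba-a2 encode the adult alpha chains. Hba-a1 had 476 CPM in O-Ex, 260 in O-Ctrl and 238 in Y-Ctrl. Hba-a2 had 410 CPM in O-Ex, 213 in O-Ctrl and 221 in Y-Ctrl. The alpha copies differ in the order of the control sections, Hba-a1 being higher in O-Ctrl and Hba-a2 in Y-Ctrl, and their sum was 886 CPM in O-Ex, 473 in O-Ctrl and 459 in Y-Ctrl.

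Alas2 had 3.68 CPM (3.18 to 4.24) in O-Ex, 1.82 (1.49 to 2.21) in O-Ctrl and 1.91 (1.58 to 2.29) in Y-Ctrl. These UMIs came from 118 spots in O-Ex, 66 in O-Ctrl and 64 in Y-Ctrl. The control intervals overlap each other and neither reaches that of O-Ex.

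Per kilobase of transcript, the order of the members was the same in the 3 sections: Hbb-bs, Hba-a2, Hba-a1, Hbb-bt and Alas2. In O-Ex these levels were 1606, 741, 681, 201 and 1.81 CPM per kilobase, in O-Ctrl 876, 385, 372, 107 and 0.896, and in Y-Ctrl 942, 399, 341, 116 and 0.939. Hba-a2 and Hba-a1 change places when levels are not divided by length, since the annotated Hba-a2 transcript is the shorter. This assay counts transcript ends, so division by length is a common scale and not a correction.

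**Figure D1:**
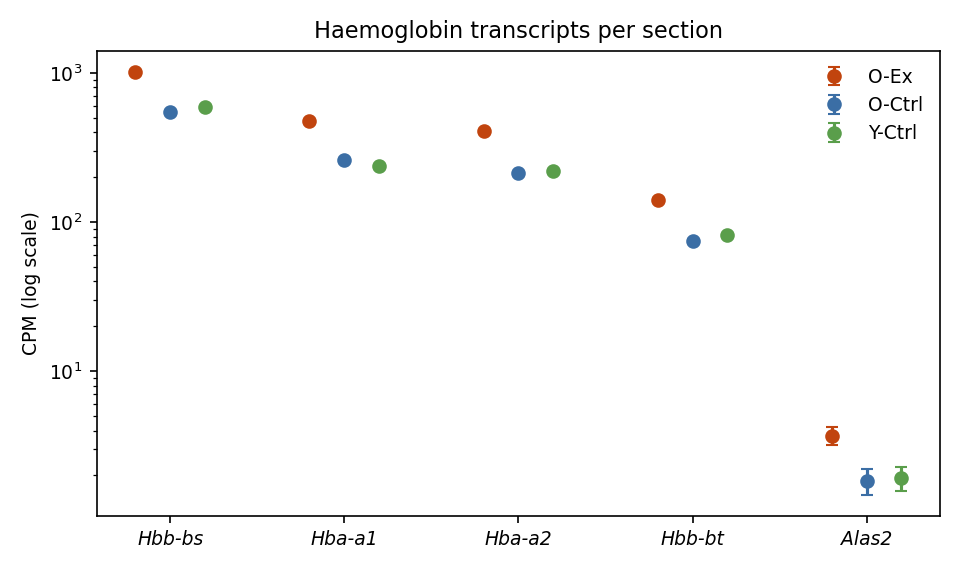
Level of each haemoglobin transcript in CPM (vertical axis, log scale) in the O-Ex, O-Ctrl and Y-Ctrl sections, with exact 95% Poisson intervals. The O-Ex point is the highest for each gene, from 1008.3 CPM for Hbb-bs to 3.68 for Alas2, and the control points lie close together.

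Exercise against control was addressed by the ratio of O-Ex over O-Ctrl on the log2(CPM + 5) scale, where a gene with few counts shows too small a difference. It was 0.87 for Hbb-bs, 0.87 for Hbb-bt, 0.86 for Hba-a1, 0.93 for Hba-a2 and 0.89 for their sum (1.85-fold). The same ratio for Alas2 was 0.35, and without the added 5 CPM it was 2.02 (1.58 to 2.59). Of the 5 members, 4 had a mean of at least 10 CPM over the sections, and Alas2 did not. In O-Ex all 4 of these stood above O-Ctrl by 1.5-fold or more, against 0.699% of the 9013 genes at that level, and 0.133% of genes stood that far below. The median of all 9013 genes was 0.06. The 4 globins lie in the upper tail of this ratio, and they are not independent of each other.

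O-Ctrl over Y-Ctrl, the ratio that addresses age, was small for the members. It was -0.10 for Hbb-bs, -0.11 for Hbb-bt, 0.12 for Hba-a1 and -0.05 for Hba-a2, and -0.04 for their sum. For Alas2 it was -0.02, with a plain ratio of 0.954 (0.726 to 1.25). None of the 4 members passed 1.5-fold in either direction, where 0.377% of all genes were that much higher and 0.244% that much lower, and the median of all genes was -0.01. Counting error alone is exceeded for the sum, whose plain ratio was 0.970 (0.960 to 0.981), but section-to-section spread is unknown. O-Ctrl enters both ratios, so they are not independent.

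Where in the brain these transcripts lay was described with 12 groups of spots. Each spot was given to the marker list with its highest score if that score was at least 1.5 SD above the mean of all spots. Between 60 and 515 spots fell into a group per section, and 1126 spots in O-Ex, 1320 in O-Ctrl and 1106 in Y-Ctrl fell into none. Of the spots in none, 397, 397 and 384 scored within 0.25 SD of the threshold. The groups are ranges of a score and not cell types, and globins had no part in them. Markers of brain were present in each library, with none of the 9 white matter genes at 0 and a sum of 6472 CPM in O-Ex, 6894 in O-Ctrl and 6415 in Y-Ctrl. The sections did not hold the same regions in equal measure. Thalamus markers summed to 246 CPM in O-Ex, 263 in O-Ctrl and 436 in Y-Ctrl. Hypothalamus markers summed to 96.7, 125 and 377 CPM in the same order, of which Pmch alone gave 6.04, 17.8 and 262. Hap1, the next by counts, had 56.9, 58.3 and 41.4 CPM, and the hypothalamus group had 217, 321 and 211 spots. The hypothalamus sum is therefore not a measure of how much of that region each section held.

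The meninges group, formed on fibroblast and other meningeal genes such as Dcn, Slc6a13 and Col1a2, had the highest globin level in each section, at 7996 CPM in O-Ex, 6993 in O-Ctrl and 8222 in Y-Ctrl. These levels were 5.10 times those of the spots in no group in O-Ex, 10.6 times in O-Ctrl and 8.98 times in Y-Ctrl. With groups formed at a score of 2.5 SD they were 7.19, 12.2 and 14.5 times, so the order of the control sections depends on the score. Hbb-bs alone reached 3877 CPM in the meninges of O-Ex, 3354 in O-Ctrl and 4243 in Y-Ctrl. The 3 richest spots of this group held 29.8% of its globin UMIs in O-Ex, 26.7% in O-Ctrl and 54.6% in Y-Ctrl. Without them the level was 5615 CPM in O-Ex, 5125 in O-Ctrl and 3729 in Y-Ctrl, so that Y-Ctrl was highest with these spots and lowest without them. The median spot had 16.1 globin UMIs per 10000 in O-Ex, 11.7 in O-Ctrl and 13.3 in Y-Ctrl.

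By summed CPM, the other groups at fluid or vessel borders were also above the spots in no group. Those spots had 1566 CPM in O-Ex, 660 in O-Ctrl and 916 in Y-Ctrl. In Y-Ctrl the ependyma and choroid plexus groups were near the striatum group, at 1181 CPM. The ependyma group, which lines the ventricles, had 6551 CPM in O-Ex, 3646 in O-Ctrl and 1216 in Y-Ctrl. The choroid plexus group, the vascular tissue that makes cerebrospinal fluid, had 3616 CPM in O-Ex, 1837 in O-Ctrl and 1253 in Y-Ctrl. Both were in the order O-Ex, O-Ctrl, Y-Ctrl by summed CPM, but the median spot of neither kept it. In the choroid plexus group the median spot had 5.92 globin UMIs per 10000 in O-Ex, 5.33 in O-Ctrl and 9.51 in Y-Ctrl, and in the ependyma group 9.61, 5.48 and 7.42. Without the 3 richest spots the choroid plexus level was 2693 CPM in O-Ex, 986 in O-Ctrl and 880 in Y-Ctrl, and the ependyma level was 4747, 2399 and 820. The spots in no group of Y-Ctrl had 794 CPM on that measure. The choroid plexus group itself differed in size, with 220 spots in O-Ex, 71 in O-Ctrl and 60 in Y-Ctrl.

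The arterial smooth muscle group had 2771 CPM in O-Ex, 4024 in O-Ctrl and 3324 in Y-Ctrl. Its median spot showed another order, at 12.9 globin UMIs per 10000 in O-Ex, 5.35 in O-Ctrl and 7.95 in Y-Ctrl. The 3 richest spots held 26.5% of the group's globin UMIs in O-Ex, 44.7% in O-Ctrl and 48.0% in Y-Ctrl, and without them the level was 2036 CPM in O-Ex, 2225 in O-Ctrl and 1730 in Y-Ctrl. The endothelium group had 2872 CPM in O-Ex, 2574 in O-Ctrl and 1903 in Y-Ctrl. There the 3 richest spots held 31.7% of the globin UMIs in O-Ex, 69.3% in O-Ctrl and 61.4% in Y-Ctrl. Without them the endothelium level was 1963 CPM in O-Ex, 791 in O-Ctrl and 735 in Y-Ctrl. The median spot had 7.82, 2.53 and 3.91 globin UMIs per 10000. On these measures O-Ex stood further above the controls than by the sums. In Y-Ctrl the 735 CPM lay below the spots in no group without their 3 richest, at 794 CPM.

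Grey matter groups were lower by summed CPM than the meninges, ependyma, choroid plexus, arterial smooth muscle and endothelium groups. They were not all below the spots in no group. The thalamus group of O-Ex and the upper cortex group of Y-Ctrl were above those spots, which had 1566 and 916 CPM there. The deep cortex group had 887 CPM in O-Ex, 254 in O-Ctrl and 457 in Y-Ctrl, and the hippocampus group had 747, 248 and 347 CPM in the same order of sections. In the upper cortex group the level was 976 CPM in O-Ex, 488 in O-Ctrl and 1060 in Y-Ctrl. The thalamus group had 2512 CPM in O-Ex, 584 in O-Ctrl and 627 in Y-Ctrl, and the hypothalamus group had 952, 588 and 563 CPM. O-Ex was above O-Ctrl in each of these 5 groups. It was above Y-Ctrl in all but the upper cortex group, and there too without the 3 richest spots, at 745 CPM in O-Ex, 280 in O-Ctrl and 633 in Y-Ctrl. Without those spots the deep cortex level was 644 CPM in O-Ex, 176 in O-Ctrl and 234 in Y-Ctrl, and the hippocampus level was 371, 190 and 190. The thalamus level was then 1649 CPM in O-Ex, 429 in O-Ctrl and 476 in Y-Ctrl.

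White matter and striatum depended on few spots. In the white matter group the level was 1275 CPM in O-Ex, 2145 in O-Ctrl and 456 in Y-Ctrl, with 25.8%, 56.2% and 41.5% of the globin UMIs in the 3 richest spots. Without those spots it was 947 CPM in O-Ex, 940 in O-Ctrl and 267 in Y-Ctrl. In the striatum group it was 1106 CPM in O-Ex, 455 in O-Ctrl and 1181 in Y-Ctrl, where 3 spots held 73.6% of the Y-Ctrl globin UMIs. Without the 3 richest it was 612 CPM in O-Ex, 350 in O-Ctrl and 311 in Y-Ctrl.

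**Figure D2:**
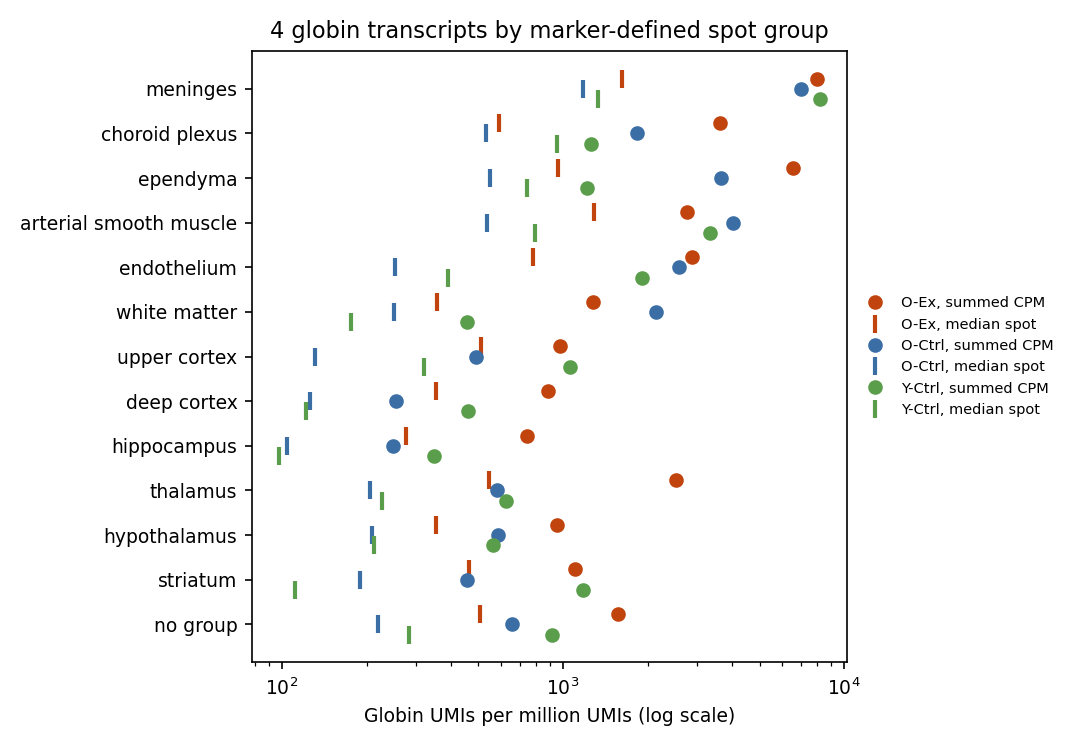
Summed globin level (points) and level of the median spot (ticks), both in globin UMIs per 1000000 UMIs on a log scale, for the 12 marker-defined groups and the spots in no group. Points lie to the right of ticks in each group because few spots carry much of the RNA, and the meninges group is highest in each section, at 7996, 6993 and 8222 CPM.

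Weighting the 12 groups equally, O-Ex over O-Ctrl was 0.77 for the globin sum (1.71-fold), with 10 of 12 groups higher in O-Ex and a range of -0.75 to 2.10. By member it was 0.75 for Hbb-bs, 0.65 for Hbb-bt, 0.78 for Hba-a1 and 0.79 for Hba-a2, and 0.27 for Alas2. Past 1.5-fold in this group-matched ratio were again the 4 globins, against 0.3% of all genes, with 0.0777% that much lower and a median of 0.09. The groups that were lower in O-Ex were white matter, at -0.75, and arterial smooth muscle, at -0.54. Without the 3 richest spots of each group, 11 of 12 were higher in O-Ex, white matter being near equal. The ratio was 2.10 in thalamus, 1.78 in deep cortex and 1.57 in hippocampus, and in hippocampus 3 O-Ex spots held 50.4% of that section's globin UMIs.

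The median spot gave a more even picture than the sums. It was higher in O-Ex than in O-Ctrl in 12 of 12 groups, by 1.11-fold in the choroid plexus to 3.87-fold in the upper cortex, with a median of 2.42-fold. Group-matched O-Ctrl over Y-Ctrl was 0.08 for the globin sum, with 6 of 12 groups higher in O-Ctrl and a range of -1.36 to 2.22. None of the 4 globins passed 1.5-fold there, against 0.399% of all genes higher and 0.122% lower. The median spot was higher in O-Ctrl than in Y-Ctrl in 4 of 12 groups, with a median ratio of 0.898.

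**Figure D3:**
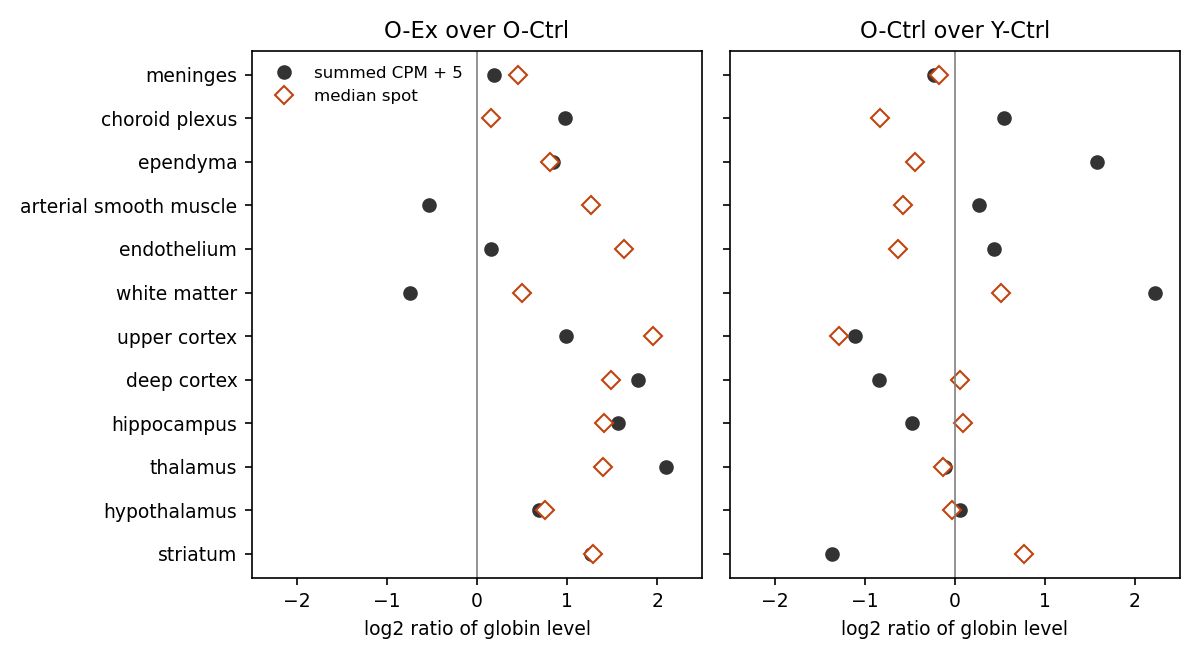
Log2 ratio of the globin level by spot group for O-Ex over O-Ctrl (left) and O-Ctrl over Y-Ctrl (right), from summed CPM + 5 (filled points) and from the median spot (open diamonds). On the left 10 of 12 points and 12 of 12 diamonds lie above 0, and on the right 6 of 12 points and 4 of 12 diamonds do.

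Globin UMIs were concentrated in few spots. The median spot had 5.26 globin UMIs per 10000 in O-Ex, 2.28 in O-Ctrl and 2.48 in Y-Ctrl, while the richest spot had 1674, 1677 and 1724. The top 1% of spots (34 in O-Ex and 35 in each control) held 27.5% of the globin UMIs in O-Ex, 40.8% in O-Ctrl and 42.1% in Y-Ctrl. The single richest spot was alike in the 3 sections, and the quantiles below it were higher in O-Ex. The 25% quantile was 2.41 globin UMIs per 10000 in O-Ex, 0.959 in O-Ctrl and 1.06 in Y-Ctrl, and the 90% quantile was 36.0, 16.1 and 19.1.

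Spots with no globin UMI numbered 117 in O-Ex, 339 in O-Ctrl and 351 in Y-Ctrl, or 3.51%, 9.69% and 10.3%. Thinned to 3000 UMIs each, spots with a globin UMI made up 74.2% (72.7 to 75.7) in O-Ex, 54.7% (53.0 to 56.3) in O-Ctrl and 55.6% (53.9 to 57.3) in Y-Ctrl, against 96.5%, 90.3% and 89.7% before thinning. In the thinned spots of the meninges group the share was 92.7% in O-Ex, 80.3% in O-Ctrl and 84.3% in Y-Ctrl. In those of the hippocampus group it was 56.5% in O-Ex, 38.3% in O-Ctrl and 33.9% in Y-Ctrl. Capillaries cross all of these groups, so none of them is a tissue that should lack globin RNA.

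**Figure D4:**
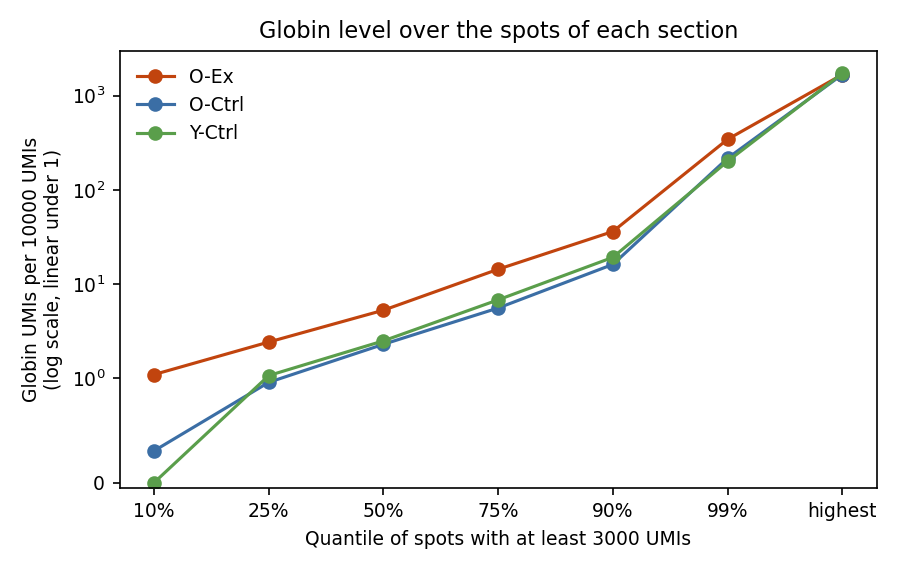
Globin UMIs per 10000 UMIs (vertical axis, log scale, linear under 1) at quantiles of the spots of each section. The O-Ex curve lies above both controls from the 10% to the 99% quantile, with a median of 5.26 against 2.28 in O-Ctrl and 2.48 in Y-Ctrl, and the 3 curves meet at the highest spot.

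The rich spots were spread over several groups. Of the top 1%, the meninges group held 8 of 34 in O-Ex, 9 of 35 in O-Ctrl and 11 of 35 in Y-Ctrl. The choroid plexus group held 8, 2 and 0, the ependyma group 5, 7 and 0, and the arterial smooth muscle group 0, 6 and 5. The 4 border groups together were 22.0% of spots in O-Ex, 14.5% in O-Ctrl and 13.1% in Y-Ctrl, and held 44.7%, 44.5% and 37.4% of the globin UMIs. Outside them the globin level was 1387 CPM in O-Ex, 688 in O-Ctrl and 790 in Y-Ctrl, so the higher level of O-Ex was present there too.

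Outside the border groups, spots were ordered by their score for 12 endothelial markers, such as Cldn5 and Slco1c1, and cut into 5 equal bins. From the lowest to the highest bin the globin level was 921, 864, 1309, 1786 and 2281 CPM in O-Ex. The same bins had 393, 512, 622, 737 and 1255 CPM in O-Ctrl, and 508, 876, 669, 813 and 1104 CPM in Y-Ctrl. The highest bin was the richest in each section, and O-Ex was above O-Ctrl in all 5 bins.

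Barcodes under 3000 UMIs, on or off the tissue, also carried globin RNA. Their globin level was 2424 CPM in O-Ex, 1670 in O-Ctrl and 1994 in Y-Ctrl, above the level of the kept spots in each section. In barcodes under 300 UMIs it was 4072 CPM in O-Ex, 2634 in O-Ctrl and 2229 in Y-Ctrl. Barcodes under 3000 UMIs held 2.97%, 3.18% and 3.24% of all globin UMIs. How much of the globin RNA in kept spots had spread from elsewhere on the array was not tested.

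The chains kept nearly the same proportions in the 3 sections while their sum differed. Alpha chains made up 43.5% (43.2 to 43.8) of globin UMIs in O-Ex, 43.1% (42.7 to 43.5) in O-Ctrl and 40.6% (40.2 to 40.9) in Y-Ctrl. This is 0.771 alpha UMIs per beta UMI in O-Ex, 0.757 in O-Ctrl and 0.682 in Y-Ctrl. Hbb-bt made up 12.3% (12.0 to 12.6) of beta UMIs in O-Ex, 12.0% (11.7 to 12.3) in O-Ctrl and 12.1% (11.8 to 12.4) in Y-Ctrl. The Hbb-bt share has overlapping intervals, whereas the alpha share of Y-Ctrl lies below both O sections by more than counting error.

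Hba-a1 made up 53.7% (53.2 to 54.2) of alpha UMIs in O-Ex, 55.0% (54.4 to 55.6) in O-Ctrl and 51.9% (51.3 to 52.5) in Y-Ctrl, a split that rests on reads of near-identical transcripts. Alas2 stood at 18.1 (15.6 to 20.8) UMIs per 10000 globin UMIs in O-Ex, 16.6 (13.6 to 20.1) in O-Ctrl and 16.9 (14.0 to 20.2) in Y-Ctrl. Relative to globins, no difference in Alas2 between sections was detectable at this depth.

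The alpha share also differed within sections, along the globin level of the spot. In spots under 3 globin UMIs per 10000, alpha chains made up 37.1% of globin UMIs in O-Ex, 35.6% in O-Ctrl and 34.1% in Y-Ctrl. In spots at 100 or more they made up 45.6% in O-Ex, 45.3% in O-Ctrl and 43.3% in Y-Ctrl. The classes between held 37.1%, 40.6% and 43.4% in O-Ex, 37.3%, 39.7% and 44.4% in O-Ctrl, and 34.6%, 38.3% and 40.8% in Y-Ctrl, from low to high globin. Poor spots therefore had relatively more beta than alpha UMIs in the 3 sections. Spots of the lowest class were also deeper in O-Ex, with a median of 16468 UMIs against 15630 in the highest class, and in O-Ctrl, with 16784 against 12624.5, but not in Y-Ctrl, with 16983 against 18628.

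The Hbb-bt share of beta UMIs was also lower in poor spots, at 10.7% in O-Ex, 10.7% in O-Ctrl and 10.3% in Y-Ctrl, against 12.8%, 12.5% and 13.1% in spots at 100 or more. By spot group, the alpha share ranged from 39.5% (upper cortex) to 47.4% (white matter) in O-Ex, from 37.5% (upper cortex) to 46.0% (meninges) in O-Ctrl, and from 33.0% (hypothalamus) to 47.0% (white matter) in Y-Ctrl. In barcodes under 3000 UMIs it was 40.1% in O-Ex, 42.0% in O-Ctrl and 39.8% in Y-Ctrl.

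**Figure D5:**
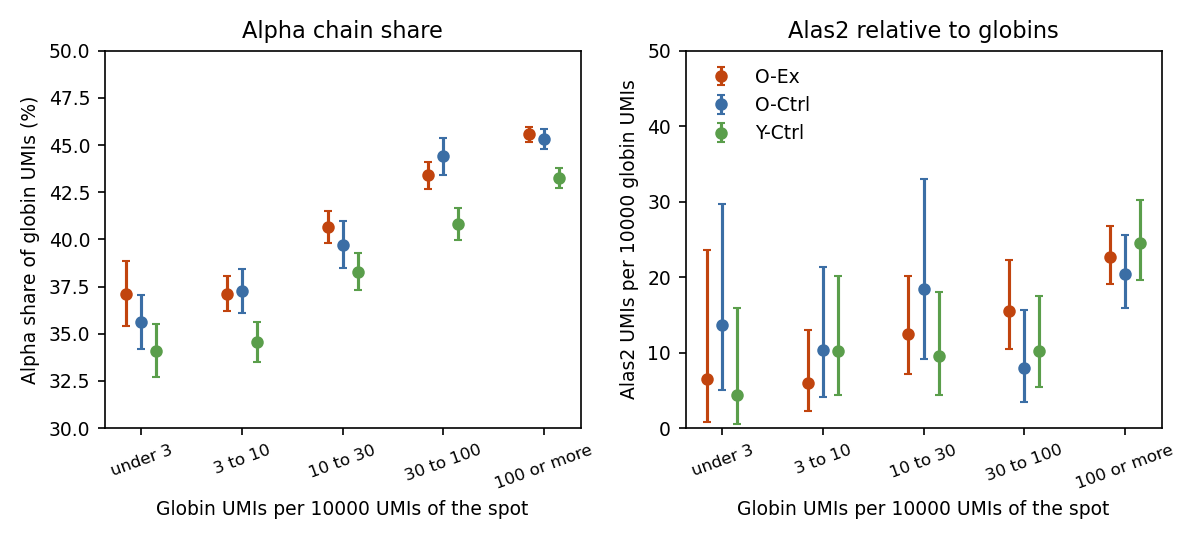
Alpha share of globin UMIs in percent (left, axis from 30) and Alas2 UMIs per 10000 globin UMIs (right) in classes of spots by globin level, with exact 95% binomial intervals. The alpha share is 34.1% to 37.1% in the lowest class and 43.3% to 45.6% in the highest, and the Alas2 intervals are wide wherever few UMIs were counted.

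Alas2 followed the richest spots. Of its UMIs, 137 of 191 in O-Ex, 72 of 104 in O-Ctrl and 85 of 117 in Y-Ctrl lay in spots with at least 100 globin UMIs per 10000. The same spots held 57.2% of the globin UMIs in O-Ex, 56.5% in O-Ctrl and 50.1% in Y-Ctrl. Spots with an Alas2 UMI had a median of 142 globin UMIs per 10000 in O-Ex, 133 in O-Ctrl and 101 in Y-Ctrl, and spots without one had 5.03, 2.22 and 2.40. Spots with an Alas2 UMI were also deeper. Their median was 18275.5 UMIs against 13367.5 in O-Ex, 15118 against 14894 in O-Ctrl and 20570 against 15651 in Y-Ctrl. All but 1 of the spots with an Alas2 UMI, that one in Y-Ctrl, also had a globin UMI. Relative to globins, Alas2 stood at 22.7 UMIs per 10000 globin UMIs in this richest class in O-Ex, 20.4 in O-Ctrl and 24.5 in Y-Ctrl. In the lowest class, 2 Alas2 UMIs were counted in O-Ex, 6 in O-Ctrl and 2 in Y-Ctrl, too few to give an order.

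Across spots of a section, log2(1 + UMIs per 10000) of the globin transcripts correlated with Pearson's r between 0.70 and 0.81 for each pair, over 3332 to 3498 spots. Alas2 correlated with each globin at 0.37 to 0.47. These values share the depth and total of each spot and are a description. Among 11366 other genes with at least 200 UMIs in each section, the 10 whose lowest r with the globin sum was highest were Gm42418, Ptgds, mt-Nd2, Myoc, Mgp, Lars2, Slc6a13, Ifitm3, Aldh1a2 and mt-Nd5. The values were weak, from 0.31 for Gm42418 and 0.30 for Ptgds, a prostaglandin synthase of the meninges, to 0.20 for mt-Nd5. Slc6a13 and Aldh1a2 were among the meningeal markers used to form the spot groups.

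Other erythroid genes were counted from a list of 26 measured genes, some of which other cells also use. Of these, 7 had a mean of at least 10 CPM, and none of these was 1.5-fold higher or lower in either ratio, beside the shares of all genes given above, with medians of 0.03 for O-Ex over O-Ctrl and -0.12 for O-Ctrl over Y-Ctrl. Among those with most UMIs, Mkrn1 had 93.2 CPM in O-Ex, 93.1 in O-Ctrl and 103 in Y-Ctrl, and Bpgm, which makes the phosphoglycerate that tunes oxygen release from haemoglobin, had 59.9, 67.5 and 64.3. At the low end, 5 of the 26 were at 0 in O-Ex, 2 in O-Ctrl and 5 in Y-Ctrl, and 7 had at most 3 UMIs in every section. Among those 7 were Slc4a1 (the band 3 anion exchanger), with 3 UMIs in O-Ex, 1 in O-Ctrl and 3 in Y-Ctrl, and the transcription factor gene Gata1, with none. Other lineage genes were counted more often, such as Epor (the erythropoietin receptor), with 246, 285 and 264 UMIs, and Tal1, with 83, 84 and 63. These 4 genes lie outside the rule for named genes and were picked after their values were seen.

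Haem synthesis genes, which act in all cells with mitochondria, were given by their counts. Of 12, 10 reached 10 CPM and none passed 1.5-fold in either ratio, a count near the shares of all genes (0.699% higher and 0.133% lower in O-Ex, 0.377% higher and 0.244% lower in O-Ctrl), with medians of 0.05 for O-Ex over O-Ctrl and 0.01 for O-Ctrl over Y-Ctrl. Alas1, the counterpart of Alas2 in other tissues, had 37.4 CPM in O-Ex, 34.1 in O-Ctrl and 34.5 in Y-Ctrl. Fech, which inserts iron to complete haem, had 55.6, 52.4 and 52.1 CPM, and Tmem14c, a mitochondrial carrier of haem precursors, had 80.9, 84.1 and 81.6.

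Of 10 genes that clear haem and haemoglobin or store iron, 5 reached 10 CPM and none passed 1.5-fold in either ratio. This count is near the shares of all genes (0.699% higher and 0.133% lower in O-Ex over O-Ctrl, 0.377% and 0.244% in O-Ctrl over Y-Ctrl). The medians were -0.03 and 0.11 in the same order of ratios. The ferritin heavy chain gene Fth1 had 7909 CPM in O-Ex, 8511 in O-Ctrl and 7424 in Y-Ctrl, the light chain gene Ftl1 had 710, 710 and 558, and the constitutive haem oxygenase gene Hmox2 had 88.9, 91.1 and 88.2. Of the other globins, 2 of the 9 measured reached 10 CPM, and neither passed 1.5-fold, which is also near these shares. Their medians were -0.12 for O-Ex over O-Ctrl and 0.43 for O-Ctrl over Y-Ctrl. Cygb (cytoglobin) had 43.6 CPM in O-Ex, 43.9 in O-Ctrl and 34.8 in Y-Ctrl, and Ngb (neuroglobin) had 14.6, 17.9 and 10.6. The third by counts, Mb (myoglobin), had 1.33, 0.754 and 0.915 CPM.

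Markers of other blood cells were mostly too low to compare, and whether other cells also gave UMIs of these genes was not tested. Of 8 platelet genes 1 reached 10 CPM, Gng11, at 79.9 CPM in O-Ex, 98.0 in O-Ctrl and 93.3 in Y-Ctrl. The next by counts were far lower, Itga2b at 4.86, 5.32 and 5.39 CPM and Gp1bb at 2.51, 2.53 and 3.12. Of 11 leukocyte genes 1 reached 10 CPM, Coro1a, at 103, 90.6 and 89.0 CPM. Next by counts were Ptprc, at 3.30, 3.28 and 1.78 CPM, and S100a8, a neutrophil gene, at 3.39, 1.77 and 0.752. Of 6 plasma cell genes 2 reached 10 CPM, and both passed 1.5-fold in O-Ex over O-Ctrl, where 0.699% of all genes did. These were the antibody genes Ighm, at 67.0 CPM in O-Ex, 28.5 in O-Ctrl and 31.4 in Y-Ctrl, and Igkc, at 48.5, 0.719 and 2.27. The third by counts, the antibody gene Ighg2c, was not higher in O-Ex, at 3.16, 3.46 and 3.20 CPM.

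Summed markers of the border tissues and of endothelium also stood higher in O-Ex, by most for the choroid plexus. The summed choroid plexus markers had 408 CPM in O-Ex, 150 in O-Ctrl and 116 in Y-Ctrl, and each of the 8 of 9 that reached 10 CPM passed 1.5-fold in O-Ex over O-Ctrl, where 0.699% of all genes did. The ependymal markers had 177, 121 and 124 CPM, the meningeal markers 82.0, 61.0 and 63.9, the arterial smooth muscle markers 78.8, 60.3 and 62.3, and the endothelial markers 253, 208 and 232. Of these lists, 7, 1, 2 and 8 genes reached 10 CPM in that order, and none passed 1.5-fold in O-Ex over O-Ctrl. The 8 endothelial genes were uneven in that log2 ratio, from -0.05 for Flt1 to 0.52 for Slco1c1, with a median of 0.20. The part of these tissues in the globin difference was not tested, and the globin level outside the 4 border groups is given above.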

How the data were processed

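The authors deposited raw UMI counts per gene and barcode for 3 Visium sections, without normalization. The file headers name Space Ranger 2.0.0 as the software, and the genome build is mm10, per the submitters' processing notes. Every count column was mapped to its sample, and neither images nor spot positions were used. Counts were summed over barcodes with at least 3000 UMIs and scaled to CPM. Ratios were taken as log2(CPM + 5), and the background was every gene with a mean of 10 CPM or more, read at 1.5-fold. Spot groups used z-scores of summed markers over all spots, at 1.5 SD or more and with at least 30 spots per section. Each group had 1 section, so there is no test, and spots are not replicates. No doublet caller was run on spots. The genes named were the 5 members, the 3 of each list with most counts, and the 10 most like the globin sum. Members, lists and markers were chosen with earlier results of these data known, and 4 listed symbols are not used here. A few single genes are left out of the text. Positions came from the GENCODE annotation for mm10 and promoter windows from RefSeq. Scripts were tested on simulated counts. Tools were Python 3.11.15, numpy 2.4.6, scipy 1.17.1, pandas 2.3.3, matplotlib 3.10.9, R 4.3.3 and edgeR 4.0.16, the last for TMM scaling as an alternative.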

Additional observations from a re-analysis of the deposited data

Results flagged for a closer look

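In some spot groups the globin sum differed by at least 1.5-fold in the opposite direction to the whole section, or by the most in either direction where the whole sections were close, and these differences were not tested. In the white matter group the log2 ratio of O-Ex over O-Ctrl was -0.75, against 0.89 over the whole section. In the same group O-Ctrl over Y-Ctrl was 2.22, against -0.04 over the whole section. In the striatum group O-Ctrl over Y-Ctrl was -1.36, of the same sign as the whole section. The 3 richest spots held 56.2% of the globin UMIs of the O-Ctrl white matter group and 73.6% of those of the Y-Ctrl striatum group. Without the 3 richest spots, the white matter level was 947 CPM in O-Ex, 940 in O-Ctrl and 267 in Y-Ctrl, and the striatum level was 350 CPM in O-Ctrl and 311 in Y-Ctrl.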

How the results depend on the processing

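No paired analysis was possible because each group has 1 section. Over 9 other settings, the log2 ratios of O-Ex over O-Ctrl stayed positive for the 4 globins (36 of 36 values, 0.76 to 1.23) and for Alas2 (9 of 9, 0.12 to 0.73). Of the O-Ctrl over Y-Ctrl member values, 43 of 45 kept their sign, Hba-a1 turning to -0.09 without the border groups and Alas2 to 0.03 without the top 1% of spots. For the globin sum, O-Ex over O-Ctrl (0.89) was 0.80 with TMM scaling, 0.85 without mitochondrial genes, 1.18 without the top 1% of spots and 1.005 without the 4 border groups. O-Ctrl over Y-Ctrl (-0.04) was -0.014 without the top 1% and -0.20 without the border groups. Group-matched O-Ex over O-Ctrl (0.77) was 0.75 at 6000 UMIs or more, 0.69 with TMM, 0.74 without mitochondrial genes, 1.03 without the top 1%, 0.80 at a score of 1 SD and 1.08 at 2.5 SD, where 7 of the 12 groups were large enough. Group-matched O-Ctrl over Y-Ctrl (0.08) was 0.059 at 1000 UMIs or more, 0.13 at 6000, 0.12 without the top 1% and 0.14 at 2.5 SD, over the same 7 groups. Chosen after seeing the data, leaving out the top 5% of spots gave 1.15 for O-Ex over O-Ctrl and -0.16 for O-Ctrl over Y-Ctrl, and leaving out the 3 richest spots of each group gave group-matched ratios of 0.95 and 0.23. The counts of background genes moved too: with a pseudocount of 1 CPM, 52 genes were higher in O-Ctrl than in Y-Ctrl (34 before), and 63 were when the minimum mean was 2 CPM. That lower minimum gave 25 genes lower in O-Ex than in O-Ctrl (12 before). At 2-fold, 21 genes were higher and 4 lower in O-Ex over O-Ctrl, and 13 higher and 3 lower in O-Ctrl over Y-Ctrl. The cause was not tested for any of these. Few UMIs limit Alas2, and 1 section per group limits every member.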
